A study of Rattus norvegicus with 72 samples.

Results

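Gene expression in rat dorsal root ganglia 8 h after a proximal sciatic nerve lesion was set against that 3 h after the same lesion. The 3 arrays labelled proximal at 8 h were compared with the 3 labelled proximal at 3 h. The change over the same hours in sham animals, with 3 arrays at 8 h and 3 at 3 h, served as the control for time. These 12 of the 72 arrays of the series were taken by lesion and hour from the labels. All animals were Wistar rats of 8 to 12 weeks, no genotype or drug is given, and RNA came from the L4 and L5 ganglia. The lesion is described as a crush, with a proximal and a distal site on the nerve in separate animals, and the sham procedure is not described. The labels do not say that the arrays are separate animals or whether ganglia were pooled, so a p-value reflects only how arrays of a group vary, and precision is limited by how few they are.

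A dorsal root ganglion holds the cell bodies of sensory neurons, each wrapped by satellite glial cells, with Schwann cells, fibroblasts, blood vessels and resident macrophages around them. A crush interrupts the axons far from these cell bodies, so the neuron learns of the injury first through electrical activity and calcium and later through proteins carried back along the axon. Immediate-early genes answer the first signals, and injury genes such as Atf3 and the regeneration-associated genes follow. The series title concerns such retrograde signals, and the comparison asks which transcripts of the ganglion changed between the 3rd and the 8th hour, and whether they did so beyond the change seen after sham surgery.

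Values were log2 intensities per probe set, where a difference of 1 is a 2-fold difference, and ran from 3.28 to 14.30 on the 12 arrays, with array medians between 6.97 and 7.01. Each of the 12276 genes tested is given by its brightest probe set, genes with a mean below 5.46 over the 72 arrays were left out as dim, and called genes are those with an adjusted p (Benjamini-Hochberg) under 0.05 in limma. All 12 arrays lay in 1 of 4 technical sets found by clustering arrays on dim probe sets. Markers of sensory neurons, 19 genes tested, had mean levels of 11.78 to 11.87 at 8 h and 11.80 to 11.82 at 3 h after the lesion, and of 11.64 to 11.80 at 8 h and 11.77 to 11.86 at 3 h after sham. Skeletal muscle markers, 12 genes tested, stood apart: their mean level was 6.98 to 7.09 on the proximal arrays of 8 h, but 9.64, 7.36 and 9.02 on proximal arrays a, b and c of 3 h, and 8.13 to 8.41 on the 6 sham arrays. For 4 of the 6 sham arrays the nearest array was a sham array of the other hour. The distance to the nearest array (root mean square of log2 differences) was 0.180 to 0.255 for sham and 0.185 to 0.219 for proximal arrays. Whether the sham arrays share RNA was not tested. Sham array a of 8 h had the narrowest interquartile range of the 12 (2.76, the others 2.93 to 3.14).

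Between 3 h and 8 h after the proximal lesion 8 genes were called, or 0.0652% of the genes tested, with 2 higher (0.0163%) and 6 lower (0.0489%) at 8 h. Fabp7, Aif1, Itgb3, Pdpn, Col14a1 and Adamts9 fell, and Prodh and Prr15 rose. With 1 proximal array left out, 2 genes were called without a of 3 h or c of 8 h. There were 3 without b of 3 h, 4 without c of 3 h or b of 8 h, and 6 without a of 8 h. All were among the 8, save without a of 8 h, where 4 of the 6 were. Neither Prr15 nor Prodh was called in these fits, save 1 of them without b of 8 h. Pdpn and Adamts9 were called each time. An unadjusted p under 0.05 was reached by 336 genes, or 2.74%, and 29 genes (0.236%) differed by 2-fold or more. The median difference over all genes was 0.015 on the log2 scale.

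Fabp7 encodes the brain lipid-binding protein, a fatty acid carrier that marks satellite glia and immature Schwann cells. Its log2 intensity was 8.40, 8.19 and 7.65 at 8 h and 10.08, 9.77 and 9.94 at 3 h after the lesion, against 9.84, 9.73 and 10.15 at 8 h and 9.73, 9.90 and 9.99 at 3 h after sham. The 3 proximal arrays of 8 h lay below all 9 others, a pattern that 1.68% of all genes showed, and those 9 did not separate by group. Fabp7 fell 3.60-fold (log2 difference -1.85, SE 0.33, adjusted p = 0.00395), the largest difference among the called genes.

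Aif1, the gene of the calcium-binding protein Iba1 of macrophages and microglia, was at 6.04, 5.72 and 5.49 at 8 h and at 7.58, 7.34 and 7.18 at 3 h after the lesion. It was at 6.18, 7.03 and 7.13 at 8 h and at 6.46, 6.26 and 6.88 at 3 h after sham. The proximal arrays of 8 h were again the lowest of the 12, and those of 3 h were the highest. Aif1 fell 3.07-fold (log2 difference -1.62, SE 0.32, adjusted p = 0.0131). A second, dimmer probe set of Aif1 did not show this, with a log2 difference of -0.050. In whole ganglia fewer cells of a type and less RNA per cell cannot be told apart.

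Genes of the cell surface and the matrix made up the other 4 falls. Pdpn, the gene of podoplanin, a surface glycoprotein of lymphatic endothelium and stromal cells, was at 9.78, 9.69 and 9.51 at 8 h and at 10.70, 10.70 and 10.73 at 3 h after the lesion, against 10.11 to 10.30 at 8 h and 10.38 to 10.48 at 3 h after sham. Adamts9 encodes a secreted metalloprotease that cleaves proteoglycans, and its levels were 7.20, 7.06 and 7.12 at 8 h and 8.24, 8.01 and 8.05 at 3 h after the lesion. In sham ganglia it stayed within 8.05 to 8.09 at 8 h and 7.94 to 7.99 at 3 h. These were the smallest adjusted p-values of the comparison: Pdpn fell 2.08-fold (log2 difference -1.05, SE 0.17, adjusted p = 0.000435) and Adamts9 1.96-fold (log2 difference -0.97, SE 0.15, adjusted p = 0.000435). A dimmer probe set of Adamts9 differed by -0.22 on the log2 scale.

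Itgb3 encodes the integrin beta 3 subunit, part of the vitronectin receptor. It was at 6.18, 6.28 and 6.06 at 8 h and at 7.40, 7.30 and 7.54 at 3 h after the lesion, against 6.94 to 7.39 at 8 h and 7.04 to 7.29 at 3 h after sham, and fell 2.37-fold (log2 difference -1.24, SE 0.26, adjusted p = 0.0264). Col14a1, a collagen that associates with fibrils, was at 8.74, 8.57 and 8.47 at 8 h and at 9.56, 9.41 and 9.84 at 3 h, against 9.56 to 9.64 at 8 h and 9.52 to 9.76 at 3 h after sham. It fell 2.02-fold (log2 difference -1.02, SE 0.22, adjusted p = 0.0287), while its dimmer probe set differed by -0.35. For both genes the proximal arrays of 8 h lay below all other arrays.

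Prr15, a proline-rich protein gene, and Prodh, the mitochondrial enzyme that begins the breakdown of proline, were the 2 rises. Prr15 was at 8.44, 8.12 and 8.41 at 8 h and at 7.27, 7.14 and 7.28 at 3 h after the lesion, against 7.36 to 7.53 at 8 h and 7.26 to 7.50 at 3 h after sham. Its level rose 2.13-fold (log2 difference 1.09, SE 0.22, adjusted p = 0.0213). Prodh was at 9.59, 9.44 and 9.29 at 8 h and at 8.64, 8.49 and 8.70 at 3 h, against 8.31 to 8.48 at 8 h and 8.44 to 8.60 at 3 h after sham, and rose 1.78-fold (log2 difference 0.83, SE 0.17, adjusted p = 0.0227). A dimmer probe set of Prodh, with a mean of 4.62 over the 72 arrays, differed by 0.077.

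**Figure D1:**
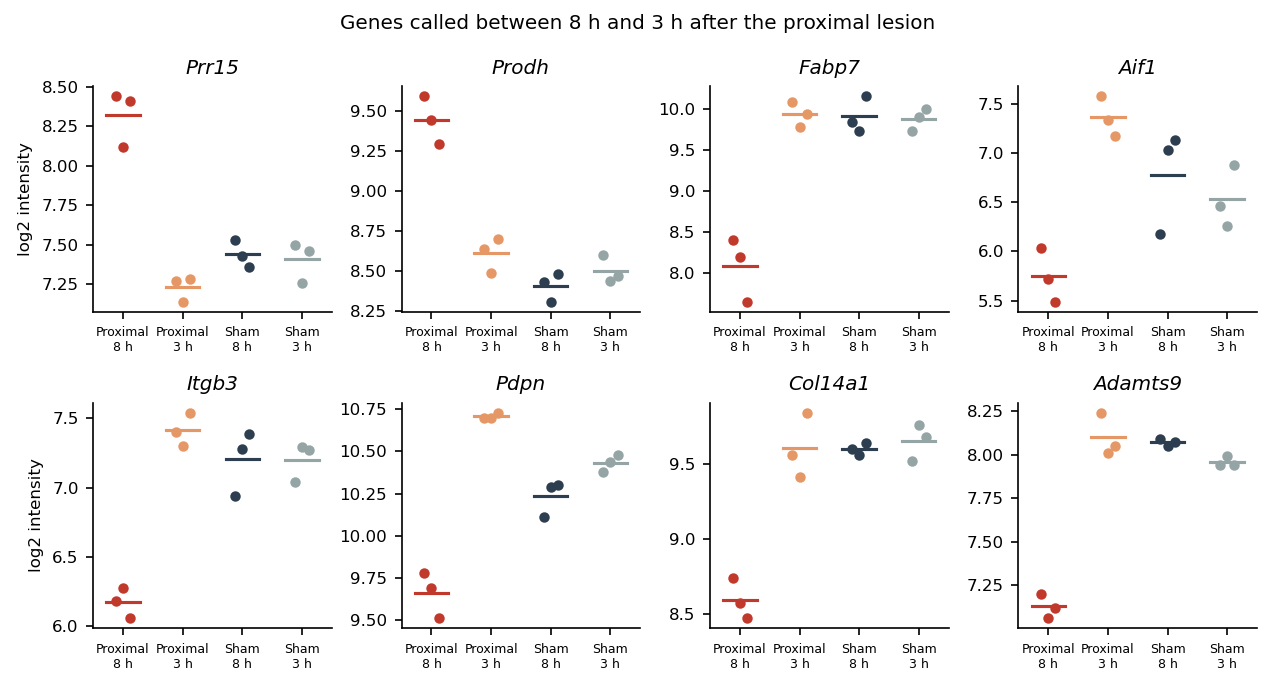
Log2 intensity (vertical axis) of the 8 genes called between the proximal arrays of 8 h and 3 h, with 1 point per array and a line at the mean of the 3 arrays of a group. In every panel the 3 proximal arrays of 8 h stand apart from the other 9 arrays: above them for Prr15 and Prodh, and below them for the other 6 genes.

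Because muscle RNA differed between the proximal arrays of 3 h, each difference was also taken against array b alone, whose muscle level of 7.36 was nearest to those of 8 h. The 8 differences were then -1.69 for Fabp7, -1.59 for Aif1, -1.13 for Itgb3, -1.04 for Pdpn, -0.82 for Col14a1, -0.88 for Adamts9, 1.18 for Prr15 and 0.95 for Prodh. The sizes stood close to those with all 3 arrays. Array b was among the arrays by which these genes were picked, and all 3 arrays of 8 h lay beyond it. The kept signs and sizes are therefore no separate check on the part of muscle RNA. With array b alone none of the 8 passed in the fit over all 72 arrays, and all 8 had an adjusted p under 0.05 when only the arrays compared were fitted. A single array has no spread of its own, so in both fits the other groups supply it and array b is taken to vary as they do.

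The number of called genes depended on which arrays set the spread. Over 200 genes picked for their spread in other groups, the 4 groups compared had median SDs of 0.129 to 0.193. Other groups of 3 or more arrays had 0.197 to 1.14. That choice of genes itself favours a low spread in the 4, and the cause of the difference in count was not tested. Fitting only the 12 arrays called 143 genes (1.16%), 56 higher (0.456%) and 87 lower (0.709%), with all 8 genes above among them. The 3 largest falls there were muscle genes, Myl11 (-4.34), Myl1 (-3.93) and Tnnc2 (-3.63), and 6 of the 12 skeletal muscle markers tested passed as lower. Without proximal arrays a and c of 3 h, 21 of the 143 were called, 8 higher and 13 lower, and all 143 kept their sign. Beside the 8 genes above, the 21 included Ccl2, Irf1, Agt, Tnc, Marcks and Cxcl13, and also Myl11, Myl1 and Tnnc2 with smaller differences of -1.64, -1.54 and -1.16. The 143 were picked on arrays that include those kept, so their kept sign is no separate check. Genes beyond the 8 are described below as passing in the 12-array fit, and their adjusted p-values come from that fit.

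Stress and early response genes were among the 56 that passed there as higher. Ccl2, a chemokine that draws monocytes, was at 10.03, 10.0015 and 9.63 at 8 h and at 8.67, 8.61 and 8.83 at 3 h after the lesion, against 8.37 to 9.11 at 8 h and 8.63 to 8.90 at 3 h after sham. It had the largest positive difference in that fit (log2 difference 1.18, 12-array adjusted p = 0.000364, and 0.115 in the fit over 72 arrays). Atf3, the stress-induced transcription factor of axotomised neurons, was at 7.79, 7.46 and 7.26 at 8 h and at 6.45, 6.56 and 6.87 at 3 h, against 6.14 to 6.62 and 6.31 to 6.47 at the same hours after sham. Its difference of 0.88 passed in the 12-array fit (adjusted p = 0.00465), and all 3 proximal arrays of 8 h lay above the other 9.

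Irf1, a transcription factor induced by interferon, was at 7.80, 7.63 and 7.55 at 8 h and at 6.85, 6.74 and 6.87 at 3 h after the lesion, with 6.55 to 6.83 on the 6 sham arrays (log2 difference 0.84, 12-array adjusted p = 0.000386). The growth arrest genes Gadd45b and Gadd45g, which act in stress kinase signalling, differed by 0.85 and 0.96 (12-array adjusted p = 0.00218 and 0.002). Their relative Gadd45a differed by 0.25 and did not pass. Fos, a subunit of the transcription factor AP-1, was at 6.91, 6.91 and 6.98 at 8 h and at 6.40, 6.12 and 5.88 at 3 h, against 5.70 to 6.56 and 5.63 to 6.09 after sham (log2 difference 0.80, 12-array adjusted p = 0.0352). Id1 and Id3, inhibitors of helix-loop-helix factors and targets of BMP signalling, differed by 0.62 and 0.68 (12-array adjusted p = 0.00448 and 0.00312).

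Other genes moved in the opposite direction in the same fit. Dusp1, a phosphatase that switches off MAP kinases, was at 8.92, 8.95 and 8.96 at 8 h and at 9.70, 9.73 and 9.59 at 3 h after the lesion, with 9.35 to 9.85 on the sham arrays (log2 difference -0.73, 12-array adjusted p = 0.00242). Crem, a factor of the cyclic AMP response, differed by -0.75 (12-array adjusted p = 0.00242). Marcks, a membrane-bound substrate of protein kinase C that is abundant in growth cones, was at 9.97, 9.66 and 9.61 at 8 h and at 10.97, 10.75 and 10.79 at 3 h, with 10.41 to 10.89 on the sham arrays (log2 difference -1.09, 12-array adjusted p = 4.85e-05). The growth factor gene Igf1 differed by -1.08 (12-array adjusted p = 0.00172). In each of these 4 genes every proximal array of 8 h lay below the other 9.

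**Figure D2:**
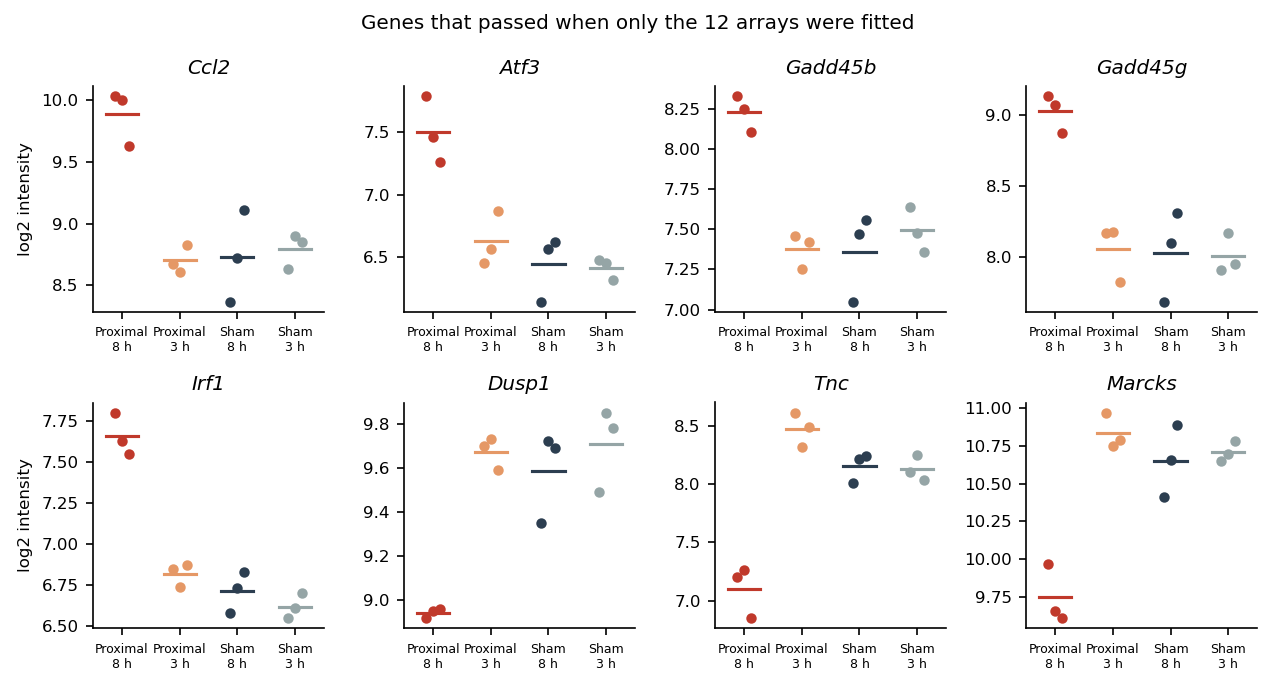
Log2 intensity (vertical axis) on each of the 12 arrays, with a line at the mean of each group, for 8 genes that passed between the proximal arrays of 8 h and 3 h only when the 12 arrays were fitted alone. The proximal arrays of 8 h lie above the other 9 arrays for Ccl2, Atf3, Gadd45b, Gadd45g and Irf1 and below them for Dusp1, Tnc and Marcks.

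Most extracellular matrix genes had lower values at 8 h. Of 26 tested, 4 were higher and the rest lower than at 3 h after the lesion, with a median of -0.17 against 0.015 over all genes. In sham 8 of the 26 were higher, with a median of -0.095, and the median of the lesion change minus the sham change was -0.083. After another quantile normalization these medians were -0.21 after the lesion, -0.010 in sham and -0.17 for the difference. None was called in the fit over 72 arrays, and the 4 with an unadjusted p under 0.05 were all lower, as were 1.41% of all genes: Tnc, Col3a1, Lamc1 and Postn. These 4 also passed in the 12-array fit. The mean level of the list was 9.24 to 9.38 at 8 h and 9.47 to 9.59 at 3 h after the lesion, against 9.26 to 9.41 and 9.35 to 9.46 after sham.

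Tnc, the gene of tenascin-C, a matrix glycoprotein of injured nerve, was at 7.20, 7.26 and 6.85 at 8 h and at 8.61, 8.32 and 8.49 at 3 h after the lesion, with 8.01 to 8.25 on the 6 sham arrays. Its difference was -1.37 (12-array adjusted p = 7.53e-06, and 0.0827 in the fit over 72 arrays). Col3a1, a fibrillar collagen, was at 11.88, 11.79 and 11.75 at 8 h and at 12.41, 12.31 and 12.30 at 3 h, with 12.00 to 12.39 on the sham arrays, a difference of -0.54. Of genes outside the lists, the collagens Col9a1 and Col6a6, chosen after their values were seen, differed by -0.98 and -0.92 and also passed in the 12-array fit. The muscle marker level, which was higher on proximal arrays a and c of 3 h, moved with these differences, and its part in the list's shift was not tested.

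Macrophage markers did not move as 1 group. Of 20 tested, Aif1 was the only one called, 8 were higher and 12 lower, and the median was -0.13. In the 12-array fit Aif1, Adgre1 and Fcer1g passed as lower, and Cd163, the haemoglobin scavenger receptor of resident macrophages, passed as higher. Without proximal arrays a and c of 3 h Aif1 still passed, while Adgre1 differed by -0.45 against -0.82 with all 3 arrays, and neither Adgre1, Fcer1g (-0.39) nor Cd163 (0.80) passed. Adgre1, a macrophage surface receptor, was at 5.22, 5.40 and 5.21 at 8 h, below the limit of 5.46 for dim genes, and at 6.42, 5.73 and 6.15 at 3 h. Cd163 was at 6.14, 5.85 and 5.86 at 8 h and at 5.28, 5.15 and 5.02 at 3 h after the lesion, with 4.83 to 5.30 on the sham arrays, so all but the proximal arrays of 8 h lay below 5.46. Cxcl13, a chemokine for B cells, chosen after its values were seen, was at 5.67, 5.53 and 6.03 at 8 h and at 7.40, 7.25 and 7.38 at 3 h, with 6.96 to 7.27 on the sham arrays (log2 difference -1.60, 12-array adjusted p = 3.45e-06).

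Fabp7 was the 1 satellite glia marker of 8 tested that was called. The other 7 had differences between -0.38 for Gja1, a gap junction protein, and 0.40. Glul, the enzyme glutamine synthetase, differed by 0.33 and Gfap, an intermediate filament of reactive glia, by 0.25, and neither passed in either fit. Schwann cell markers, 10 tested, had a median of 0.0068, and sensory neuron markers a median of 0.0042, which was -0.0083 after another quantile normalization, with none called in either list.

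**Figure D3:**
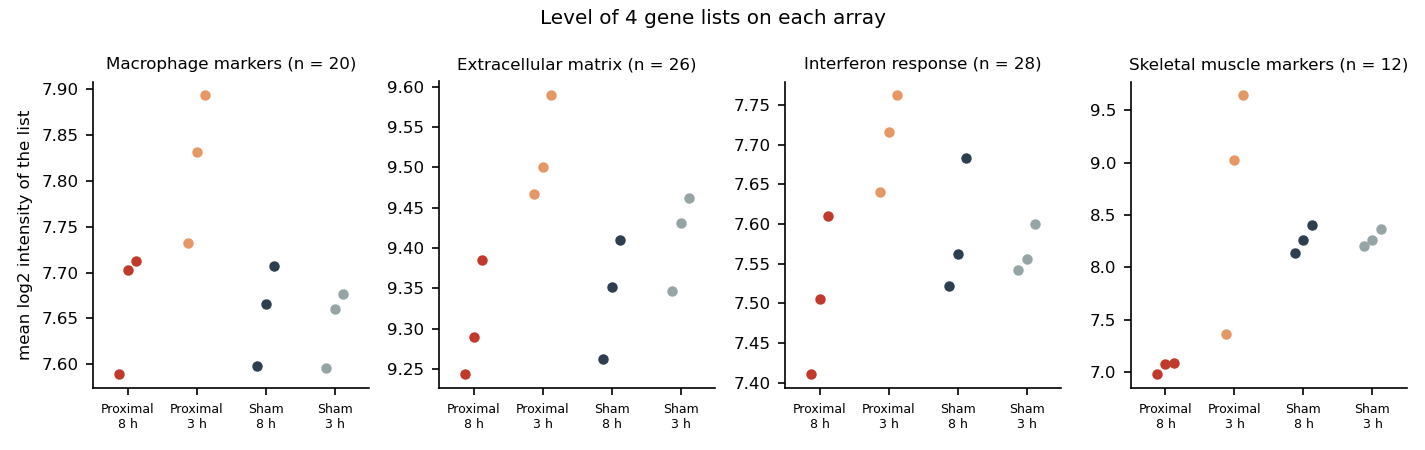
Mean log2 intensity (vertical axis) of the tested genes of 4 lists on each of the 12 arrays, with 1 point per array. In all 4 lists the levels of the proximal arrays do not overlap between 8 h and 3 h. Some lists not drawn, such as tubulins and growth cone proteins, show this too, as do 16% of single genes. Skeletal muscle markers are low on all proximal arrays of 8 h, spread widely at 3 h, and lie between 8.13 and 8.41 on the sham arrays.

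Skeletal muscle markers had by far the lowest list median, -1.72, with 2 of 12 higher and none called in the fit over 72 arrays. Their median was -0.037 in sham. Some further lists are given by their counts, beside 54.7% of all genes with a positive difference. Of 28 interferon response genes tested only 4 were higher, with a median of -0.24, and in the 12-array fit Irf1 passed as higher while Gbp2, Bst2 and Psmb9 passed as lower. Dynein, dynactin and kinesin genes, the motors of axonal transport, were higher in 24 of 27 with a median of 0.072, and oxidative stress and metal response genes in 14 of 15 with a median of 0.12, with none called in the fit over 72 arrays. Cholesterol biosynthesis genes were higher in 4 of 19 with a median of -0.086, but in 1 of 19 with a median of -0.10 in sham, and the median of the difference was -0.031. For the motors the sham median was -0.12, and for the interferon genes it was 0.021. Immediate-early genes, 28 tested, had a median of 0.072 with none called, and Atf3, Fos, Klf10 and Ier3 passed in the 12-array fit. After another quantile normalization the lesion medians of the muscle, interferon, motor, oxidative stress, cholesterol and immediate-early lists kept their sign. The sizes and counts depended on scaling. For the motors 19 of 27 were then higher, with medians of 0.038 after the lesion and -0.032 in sham. Of the oxidative stress and metal response genes 12 of 15 were then higher, with a lesion median of 0.079. In sham 10 of these 15 were then higher, with a median of 0.042, against 4 and -0.041 before that normalization. Their median for the lesion change minus the sham change was then 0.050, against 0.14 before.

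Most injury and regeneration genes differed little between 8 h and 3 h. None of 44 tested was called, with a median of -0.0044, and Atf3 was the only one to pass in the 12-array fit. Gap43, a growth cone protein, was at 12.14, 12.29 and 11.96 at 8 h and at 12.10, 12.04 and 12.18 at 3 h (log2 difference 0.026, SE 0.090). Jun differed by 0.22 (SE 0.24), Stat3 by -0.092 (SE 0.10), the neuropeptide genes Gal and Npy by -0.043 (SE 0.15) and 0.19 (SE 0.19), and the importin gene Kpnb1 by 0.042 (SE 0.38). Sox11, a transcription factor of regenerating neurons, was at 4.90 to 5.21 at 8 h and 4.98 to 5.09 at 3 h, and the cytokine gene Il6 at 4.01 to 4.40 and 4.29 to 4.43, all below 5.46. The nociceptor channel genes Scn10a and Trpv1 differed by -0.15 (SE 0.12) and 0.042 (SE 0.13), and the clock genes Per1 and Dbp by -0.22 (SE 0.16) and -0.083 (SE 0.35).

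In sham ganglia no gene was called by limma between 8 h and 3 h (0%), while 242 genes (1.97%) had an unadjusted p under 0.05, 23 higher (0.187%) and 219 lower (1.78%) at 8 h. The median difference was -0.059, and no gene differed by 2-fold. Both the median and the split depended on scaling: after another quantile normalization the median was -0.0064, with 85 higher and 214 lower at an unadjusted p under 0.05. Without sham array a of 8 h the median was -0.020, with 11 higher and 164 lower, and 1 gene was called. The 12-array fit also called 0, or 9 without sham array a of 8 h. Among the genes with the smallest p were Pbx4, a homeobox gene, at 6.50, 6.59 and 6.53 at 8 h and 6.90, 7.12 and 7.32 at 3 h, a difference of -0.57, and Slc22a6, an organic anion transporter, with a difference of -0.68. For the 8 genes called after the lesion the sham differences ran from -0.20 for Pdpn to 0.24 for Aif1. Over all genes the sham differences had an SD of 0.134. Pbx4 and Slc22a6 were picked as extremes of the sham comparison, so their sizes are no measure for the 8.

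The change after the lesion minus the change after sham was called for no gene by limma over 72 arrays (0%), and 457 genes (3.72%) had an unadjusted p under 0.05, 352 higher (2.87%) and 105 lower (0.855%). The smallest p belonged to Adamts9, with a difference of -1.08 (SE 0.22, adjusted p = 0.0999). Aif1 followed with -1.86 (SE 0.45, adjusted p = 0.509) and Fabp7 with -1.88 (SE 0.47, adjusted p = 0.529). Prodh had 0.93 (SE 0.24, adjusted p = 0.69), and Prr15 had 1.06 (SE 0.31, adjusted p = 0.888). The error was larger than for the lesion change, with a median SE over all genes of 0.257 against 0.182 for the lesion change. The median of this comparison was 0.073. After another quantile normalization it was -0.0050, with 304 genes higher and 314 lower at an unadjusted p under 0.05, and without sham array a of 8 h it was 0.039, with 235 higher and 90 lower.

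When only the 12 arrays were fitted, 32 genes (0.261%) passed in this comparison, 13 higher (0.106%) and 19 lower (0.155%). All 8 genes called in the lesion change were among them, with adjusted p-values from 0.000843 for Fabp7 to 0.0135 for Col14a1. This comparison holds the same lesion difference by which the 8 were picked, so their passing is no separate check. Higher were also Ccl2 (1.25, adjusted p = 0.0142), Gadd45b (0.99, adjusted p = 0.0259), Cd163 (0.92, adjusted p = 0.0351), the lipase gene Pnpla2 (0.88, adjusted p = 0.0457) and Agt, the precursor of angiotensin (1.11, adjusted p = 0.00679). Fzd2, a Wnt receptor gene chosen after its values were seen, had 1.19 (adjusted p = 0.0142). Lower were also Tnc (-1.40, adjusted p = 0.00135), Marcks (-1.03, adjusted p = 0.00973) and Cxcl13 (-1.52, adjusted p = 0.000843). Atf3, with 0.85, did not pass here (adjusted p = 0.109), nor did Irf1 with 0.75 (adjusted p = 0.0548). Fos, which differed by 0.30 in sham, had 0.51 and did not pass either (adjusted p = 0.455). Nor did Gadd45g, Id1, Id3, Klf10, Ier3, Dusp1, Crem and Igf1. The same held for Col3a1, Lamc1, Postn, Col9a1, Col6a6, Adgre1, Fcer1g, Gbp2, Bst2 and Psmb9, and for Myl11, Myl1 and Tnnc2. With proximal arrays a and c of 3 h left out none of the 32 was called, although all kept their sign, and 1 other gene was. The 32 were also picked on arrays that include those kept, so their kept sign is no separate check. Without sham array a of 8 h 64 were called, 30 of the 32 among them.

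**Figure D4:**
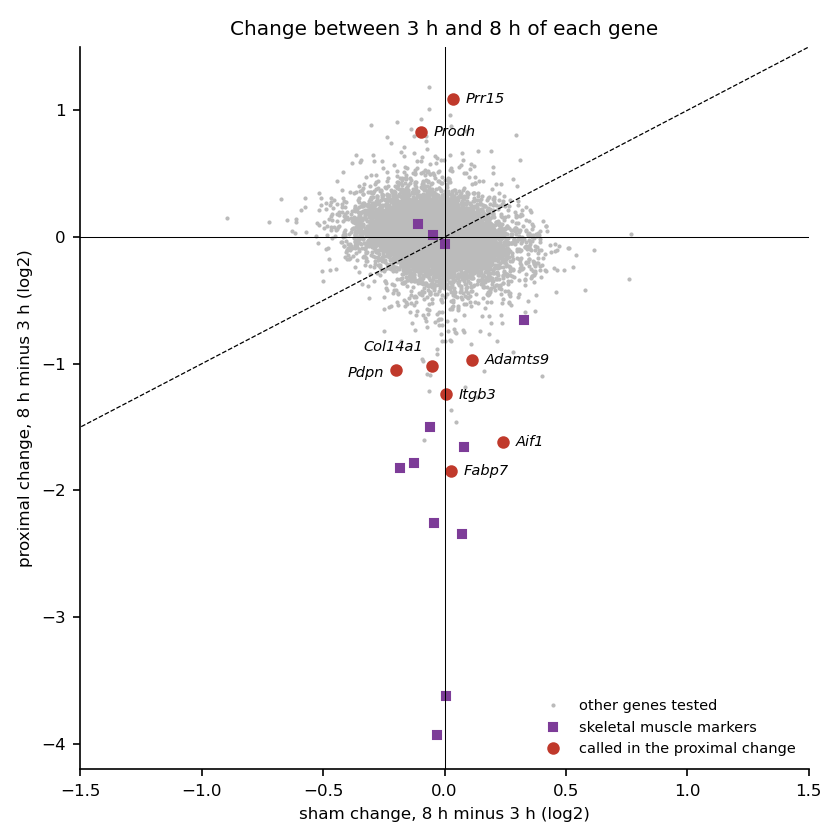
Log2 difference between 8 h and 3 h after the proximal lesion (vertical axis) against that after sham (horizontal axis) for the 12276 genes tested. Myl11, at -4.34 on the vertical axis, lies outside the plot, and the dashed line marks equal change. The 8 called genes lie from -1.85 to 1.09 on the vertical axis and within -0.20 to 0.24 on the horizontal axis, and the skeletal muscle markers reach -3.93 on the vertical axis.

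The proximal arrays of 8 h stood apart for more genes than those of any other of the 4 groups. There 642 genes (5.23%) had all 3 arrays beyond the other 9, 436 above (3.55%) and 206 below (1.68%), against 216 genes (1.76%) for the proximal arrays of 3 h, 305 (2.48%) for sham at 8 h and 97 (0.79%) for sham at 3 h. Between 8 h and 3 h alone, the 3 arrays of each hour did not overlap for 1970 genes (16%) after the lesion and for 1198 (9.76%) after sham. These counts are a description with no test.

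The distal lesion gave the same pair of hours in other animals, on 5 arrays of 8 h and 3 of 3 h. The technical set of the 12 arrays held 18 arrays in all, so the distal arrays of both hours cannot all lie in it. Distal arrays of 8 h varied more than those of 3 h. Over 200 genes picked for their spread in groups that include these, the median SD was 0.82 at 8 h and 0.20 at 3 h. No distal array was in the comparison that called the 8 genes. Distal arrays did enter the choice of probe set, the filter on dim genes and the shared estimate of the spread. With only proximal and sham arrays fitted, 6 of the 8 were called. The distal change called 68 genes (0.554%), 58 higher (0.472%) and 10 lower (0.0815%), and 4 of the 8 were among them. With technical set as a block the distal change called 310 genes, with all 68 among them. Fabp7 had 8.40 to 9.47 at 8 h and 10.63 to 10.82 at 3 h after the distal lesion, a difference of -1.76 (SE 0.30, adjusted p = 0.000483). Adamts9 differed by -0.76 (adjusted p = 0.00143), Prr15 by 1.28 (adjusted p = 0.000105) and Prodh by 0.74 (adjusted p = 0.00507).

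The other 4 were not called after the distal lesion: Aif1 differed by -0.75, Pdpn by -0.40, Itgb3 by -0.32 and Col14a1 by -0.22. The proximal change minus the distal change was called for 0 genes by limma, with 385 (3.14%) at an unadjusted p under 0.05, so none of these genes passed. The differences were -0.87 for Aif1, -0.66 for Pdpn, -0.92 for Itgb3 and -0.79 for Col14a1. These 4 were picked out for a call after the proximal lesion and none after the distal one, so the differences are a description with no test. The muscle marker level ran from 7.31 to 11.15 on the distal arrays of 8 h and from 7.15 to 7.95 on those of 3 h, opposite to the proximal arrays.

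The series covers 8 times. After the proximal lesion the mean of each of the 6 falling genes was lowest at 8 h, and after the distal lesion that of 5 of the 6, all but Col14a1. The 6 were picked for low values on the proximal arrays of 8 h, so their proximal minimum follows in part from that choice. How many of all genes had their lowest mean at 8 h was not counted, so both counts are a description only. Fabp7 averaged 10.03, 9.93, 8.08, 9.75, 10.91, 11.19, 10.76 and 9.97 at the 8 times in order, which are 1, 3, 8, 12 and 16 h and then 18, 24 and 28 h after the proximal lesion. Aif1 averaged 5.75 at 8 h and 8.76 at 28 h. Adamts9 averaged 7.20 at 1 h, 8.10 at 3 h and 7.13 at 8 h after the proximal lesion, and 7.34, 7.95 and 8.07 at the same hours after sham, so its level at 3 h was above that at 1 h in both.

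For the 2 rises the means of later hours are given with no test. Prr15 averaged 8.32, 8.33, 8.47, 7.93 and 7.82 at 8, 12, 16, 18 and 28 h after the proximal lesion. Prodh averaged 9.44, 9.01, 9.13, 8.82 and 8.37 at the same hours. Atf3 and Ccl2 had higher means at 12 h than at 8 h: Atf3 averaged 7.50 at 8 h and 11.02 at 12 h, and Ccl2 9.89 at 8 h and 10.71 at 12 h. Groups of 12 and 16 h had 2 proximal arrays each, and arrays of other hours lay partly in other technical sets, whose part in these levels was not tested.

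**Figure D5:**
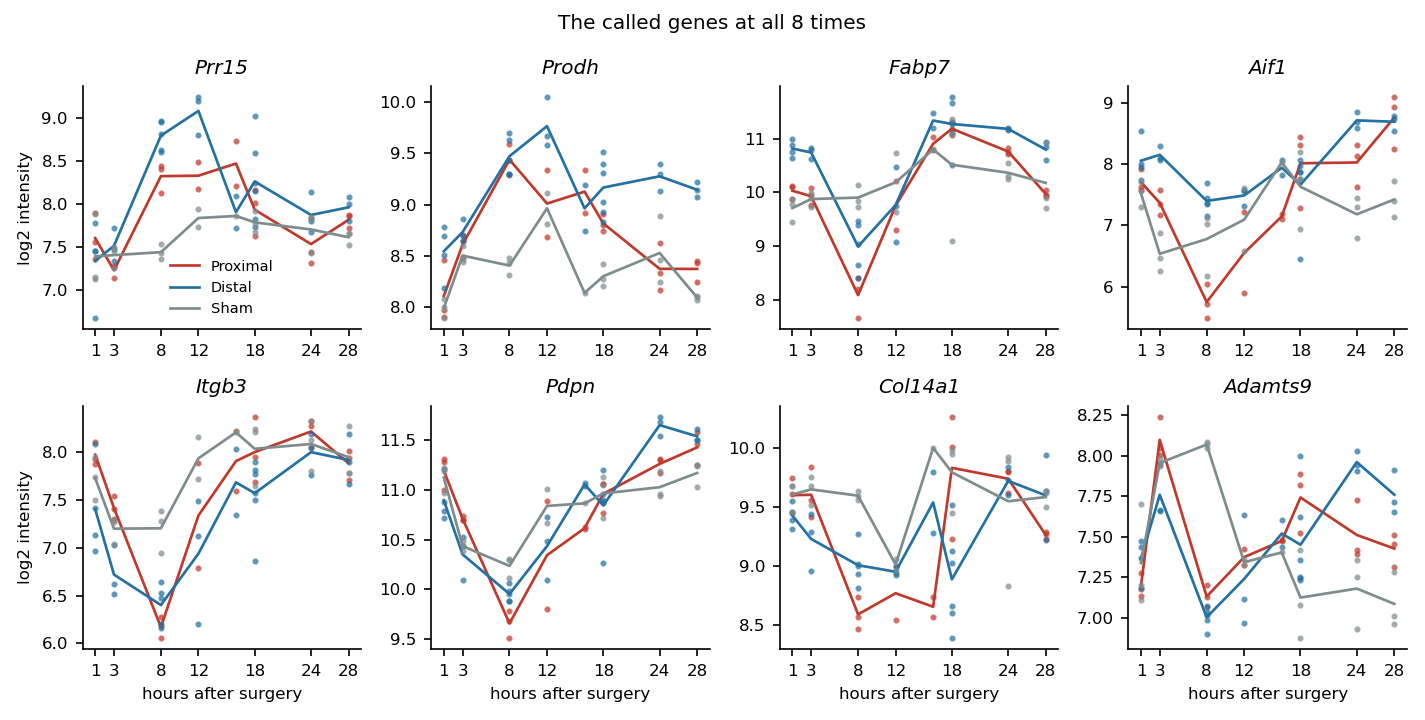
Log2 intensity (vertical axis) of the 8 called genes against hours after surgery (horizontal axis) for proximal, distal and sham arrays, with lines through the group means and 1 point per array. The proximal means of Fabp7, Aif1, Itgb3, Pdpn, Col14a1 and Adamts9 are lowest at 8 h, and those of Prr15 and Prodh at 8 h lie above those at 3 h.

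Upstream sequence was at hand for 4 of the 8 called genes, from RefSeq on the rat build GRCr8. It is shown for Fabp7 and Adamts9, the 2 falls that were called after both lesions, as the 250 bases before the start that RefSeq gives to the gene, on the strand of the gene, 5′ to 3′. Fabp7 lies on the plus strand (chr20:37669356-37669605) and Adamts9 on the minus strand (chr4:127019877-127020126). Capitals mark every match to any of the 7 motifs searched on both strands.
Fabp7: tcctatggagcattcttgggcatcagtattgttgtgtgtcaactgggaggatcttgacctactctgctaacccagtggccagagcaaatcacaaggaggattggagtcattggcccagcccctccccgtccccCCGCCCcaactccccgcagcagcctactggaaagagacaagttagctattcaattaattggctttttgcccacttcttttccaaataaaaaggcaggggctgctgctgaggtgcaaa
Adamts9: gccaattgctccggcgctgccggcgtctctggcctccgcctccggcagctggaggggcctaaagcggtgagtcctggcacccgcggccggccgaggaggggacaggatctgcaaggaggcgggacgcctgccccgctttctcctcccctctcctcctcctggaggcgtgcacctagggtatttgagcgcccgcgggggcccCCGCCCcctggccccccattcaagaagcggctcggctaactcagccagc
The motifs were the cyclic AMP response element TGACGTCA, the AP-1 site TGANTCA, the E-box CACGTG, the STAT site TTCNNNGAA, the RBPJ site GTGGGAA, the GC box GGGCGG and the EGR1 site GCGGGGGCG, of which the last 2 can overlap. Each of the 2 sequences held 1 GC box and no match to the other 6 motifs. Of 27457 upstream sequences of this length 32.4% held a GC box, 6.36% an AP-1 site, 1.7% a cyclic AMP response element, 5.79% the E-box, 7.52% the STAT site, 5.22% the RBPJ site and 2.49% the EGR1 site. A match is a description of the letters only.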

How the data were processed

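Log2 intensities of whole probe sets were deposited, and RMA is the method named, per the submitters' processing notes, without a version. The sources used here do not state whether the 72 arrays were normalized as 1 set. Of 31099 probe sets, 57 controls were set aside, 20826 had 1 gene symbol in the platform annotation, 436 several and 9780 none, and 20758 matched RefSeq by Entrez identifier. The brightest probe set over the 72 arrays stood for each of 14217 named genes. Genes whose mean lay under the 25th percentile of the means of all probe sets but controls (5.46 log2) were not tested, which kept 12276.

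The 24 groups of lesion and hour came from the labels. They were fitted together in limma 3.58.1 (R 4.3.3 with the data.table package 1.17.8), whose empirical Bayes step followed expression level, with 48 residual degrees of freedom. Tests were two-sided, with p adjusted over 12276 genes (Benjamini-Hochberg), and the code was tested on simulated data. Alternatives were other filters, another quantile normalization, array weights, blocks, fewer arrays, every probe set, no trend and each array left out. Added after the data were seen were both comparisons with the distal lesion, leaving out proximal arrays a and c of 3 h together, leaving out sham array a of 8 h in the 12-array fit, averaged sham arrays, and list medians after the other normalization.

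Named are the called genes, those next by p, the members of smallest p of 41 lists and chosen injury genes at any value. The members and lists were chosen with earlier results of these data known.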

Additional observations from a re-analysis of the deposited data

How the results depend on the processing

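The lesion change called 8 genes, against 39 after another quantile normalization, 48 with technical set as a block, 143 with only the 12 arrays fitted and 428 with array weights, and each of these 4 sets held 8, or 7 after quantile normalization, of the 8. Leaving out 1 array at a time gave 2 to 8 calls for the lesion change, 0 to 1 for sham and 0 to 1 for lesion minus sham. Pdpn and Adamts9 passed in all 12 of these fits, as they did under the other filters, normalization, weights, blocks and array choices, save one. That one left out proximal arrays a and c of 3 h together: no gene was called, and 21 were in the 12-array fit. Lesion minus sham had 0 calls, but 4 after quantile normalization, 5 with the set block, 32 with only 12 arrays, 309 with array weights, and 1 in the 12-array fit without the same pair, a gene not among the 32. Sham had 0 calls and 11 with array weights. Without sham array a of 8 h the 12-array fit called 195 genes for the lesion change, 9 for sham and 64 for lesion minus sham. The distal change called 68 genes, 310 with the set block and 1025 with array weights, and proximal minus distal 0 and 152. The letters did not pair the arrays, since correlations of same-lettered arrays ran from -0.50 to 0.19. With the letter as a replicate block 11 genes were called for the lesion change, 0 for sham, 0 for lesion minus sham, 63 for distal and 0 for proximal minus distal. Averaging the sham arrays of an hour was tried only in the fit over all groups. Sham and lesion minus sham already had 0 calls there, so averaging could not show a loss. The cause of these differences in count was not tested. No named gene turned its sign in a called value under any of these settings.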
